A study of Mus musculus with 39 samples.

Results

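Tight nucleosome wrapping domains (TiNRDs) shorter than 1 Mb were examined in R1 mouse embryonic stem cells. A nucleosome wrapping domain (NRD) is a run of genomic bins whose nucleosome wrapping index (NRI) keeps the same sign. The NRI rises as MNase releases longer nucleosomal DNA fragments relative to shorter ones. Domains of positive NRI are TiNRDs and domains of negative NRI are loose domains (LoNRDs). Of the 1243 NRDs in the deposited list, 561 were TiNRDs on chromosomes 1 to 19, and 250 of these were under 1 Mb long. The members were thus chosen by their measured NRI sign and their called length, and neither is a result here.

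The cells were wild type and grown with LIF, without any genetic change or treatment in the groups used. Chromatin was crosslinked, digested with MNase, sonicated and immunoprecipitated for histone H3 in 4 libraries from 2 experiments. Replication timing (RT) came from BrdU-labelled DNA of 4 S-phase fractions in 2 experiments, 8 libraries in all, out of 39 samples in the series. Both deposited lists hold a single value per domain, so no replicate error can be given and the depth behind a value is unknown. The files used hold no expression values, so the cell type could not be checked against its markers.

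In a nucleosome, DNA winds around a histone octamer and can partly unwrap at its entry and exit sites. S phase follows a set order in which gene-rich, accessible chromatin tends to replicate early and gene-poor heterochromatin late. RT domains are long stretches of similar timing, and in the RT list a positive log2 value means early and a negative value late.

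The short TiNRDs covered 137.4 Mb, against 1121.1 Mb in the 311 autosomal TiNRDs of 1 Mb or more. The short TiNRDs contained CpG-rich as well as CpG-poor promoters. The following 6 sequences show both kinds. They come from the domains with the most genes (Ctnnd1, Olfr744), early-replicating domains between late flanks (Cenpe, Mmp20) and domains inside late RT domains (Fmn1, Scgb2b17), each time the promoter with the most and the fewest CpGs among those read (the first where tied). Each line gives the 250 bases before the RefSeq start (GRCm38.p6), 5′ to 3′ on the gene's strand, with every CpG in capitals.
Ctnnd1: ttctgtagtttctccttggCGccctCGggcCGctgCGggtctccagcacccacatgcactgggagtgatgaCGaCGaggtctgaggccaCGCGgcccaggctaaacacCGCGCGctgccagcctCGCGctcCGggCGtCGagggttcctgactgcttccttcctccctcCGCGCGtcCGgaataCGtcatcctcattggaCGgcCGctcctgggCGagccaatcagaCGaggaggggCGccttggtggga
Olfr744: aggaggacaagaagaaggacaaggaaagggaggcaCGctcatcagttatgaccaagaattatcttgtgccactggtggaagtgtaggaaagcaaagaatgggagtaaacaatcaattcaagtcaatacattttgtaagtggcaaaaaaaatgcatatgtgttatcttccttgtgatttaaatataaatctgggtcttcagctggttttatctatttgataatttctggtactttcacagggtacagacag
Cenpe: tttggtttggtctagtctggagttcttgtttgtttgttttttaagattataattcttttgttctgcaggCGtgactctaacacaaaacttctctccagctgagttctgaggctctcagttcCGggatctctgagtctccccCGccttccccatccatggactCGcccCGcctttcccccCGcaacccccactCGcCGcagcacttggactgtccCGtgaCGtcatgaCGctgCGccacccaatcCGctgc
Mmp20: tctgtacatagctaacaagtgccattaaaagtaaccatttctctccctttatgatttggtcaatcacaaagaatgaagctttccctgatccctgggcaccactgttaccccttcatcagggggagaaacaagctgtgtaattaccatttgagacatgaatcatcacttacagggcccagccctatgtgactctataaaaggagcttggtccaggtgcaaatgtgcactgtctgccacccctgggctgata
Fmn1: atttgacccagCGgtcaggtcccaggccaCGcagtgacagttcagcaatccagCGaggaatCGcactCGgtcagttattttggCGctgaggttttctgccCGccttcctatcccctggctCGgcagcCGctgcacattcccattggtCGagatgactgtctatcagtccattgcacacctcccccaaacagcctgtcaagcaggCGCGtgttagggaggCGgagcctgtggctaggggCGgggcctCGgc
Scgb2b17: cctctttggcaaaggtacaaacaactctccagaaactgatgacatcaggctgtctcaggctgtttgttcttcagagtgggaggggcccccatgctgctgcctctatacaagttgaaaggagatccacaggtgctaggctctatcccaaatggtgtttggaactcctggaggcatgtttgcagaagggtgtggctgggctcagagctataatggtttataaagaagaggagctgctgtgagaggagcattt

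The Ctnnd1 window lay at chr2:84658978-84659227 on the minus strand and held 26 CpGs. Ctnnd1 encodes p120 catenin, a partner of cadherins. The Olfr744 window, upstream of an olfactory receptor gene, lay at chr14:50617974-50618223 on the plus strand and held 1 CpG. The Cenpe window, upstream of a kinetochore motor gene, lay at chr3:135212313-135212562 on the plus strand and held 13. The Mmp20 window, upstream of an enamel protease gene, lay at chr9:7627981-7628230 on the plus strand and held 0. The Fmn1 window, upstream of a formin gene, lay at chr2:113327486-113327735 on the plus strand and held 15 CpGs although its domain was 100% late. The Scgb2b17 window, upstream of a secretoglobin gene, lay at chr7:33056553-33056802 on the minus strand and held 0.

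Motifs were read on both strands in the whole 300-base windows, which add 50 bases after the start. TATAAA was present in the Olfr744, Mmp20 and Scgb2b17 windows. GGGCGG, which itself holds a CpG, was present in the Cenpe and Fmn1 windows. Promoters were available for 18 of the 19 autosomes. Among these 15687 protein-coding promoters, 12.9% held TATAAA and 48.6% held GGGCGG. Among the 1010 promoters that lay in short TiNRDs the shares were 11.2% and 46.2%.

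A window was counted as CpG-rich at a CpG observed/expected ratio of at least 0.6 and a G/C content of at least 50%. By this measure 47.2% of short TiNRD promoters were CpG-rich (477 of 1010, 95% Wilson interval 44.2 to 50.3%). The share was 48.6% over all 15687 available promoters, 55.2% in TiNRDs of 1 Mb or more and 28.8% in LoNRDs under 1 Mb. In short TiNRDs that were more than 50% early the share was 49.1% (45.5 to 52.7%, n = 743), and in those more than 50% late it was 37.9% (31.4 to 44.9%, n = 195). These 2 intervals did not overlap. Without olfactory and vomeronasal receptor genes the shares were 51.8% (48.2 to 55.5%) and 42.3% (35.2 to 49.7%), and these intervals overlapped. Intervals here and later cover counting error only and treat genes or domains as independent.

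The members ranged from 300 to 900 kb, with a median of 500 kb. There were 53 domains of 300 kb, 43 of 400 kb, 40 of 500 kb, 34 of 600 kb, 27 of 700 kb, 27 of 800 kb and 26 of 900 kb. Just outside the limit lay 16 TiNRDs of 1000 kb. The NRI scores of the 900 kb domains ran from 0.13 to 0.91 with a median of 0.34, and those of the 1000 kb domains from 0.22 to 0.73 with a median of 0.40. At the other boundary, the lowest member score was 0.01, and the score nearest to 0 among LoNRDs under 1 Mb was −0.02.

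Scores were low in most members. The median was 0.24 with quartiles of 0.15 and 0.38, and 102 of the 250 were under 0.2. TiNRDs of 1 Mb or more had a median of 0.64. The longer members had the higher scores, with medians of 0.13 at 300 kb, 0.18 at 400 kb, 0.21 at 500 kb and 0.33 at 600 kb, then 0.31, 0.34 and 0.34 at 700, 800 and 900 kb. The score rose mainly between 300 and 600 kb. Domains were called on an NRI smoothed over 10 bins of 100 kb, a window longer than any member. The part of this smoothing in the low scores of the shortest domains was not tested.

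**Figure D1:**
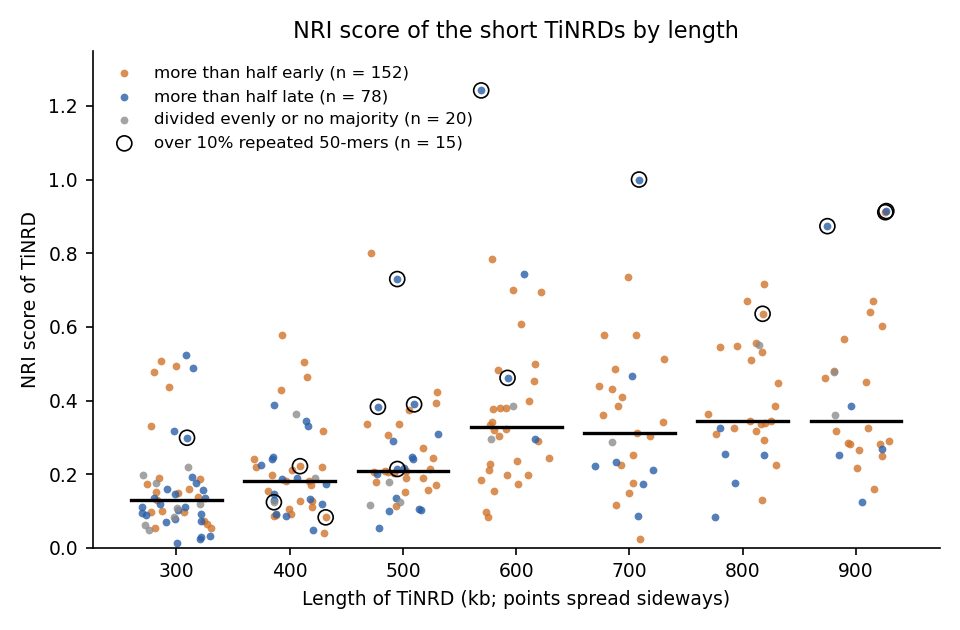
NRI score (vertical axis) against length in kb (horizontal axis, points spread sideways) for the 250 short TiNRDs, colored by the RT domains beneath them. Black bars are medians, which went from 0.13 at 300 kb to 0.34 at 900 kb, and rings mark the 15 domains with over 10% repeated 50-mers.

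Early RT domains covered 61.8% of the short TiNRD length and late RT domains 32.1%, leaving 6.19% without an RT domain. In TiNRDs of 1 Mb or more the early and late shares were 74.6% and 21.7%, and in the 234 LoNRDs under 1 Mb they were 28.6% and 65.9%. The short TiNRDs thus lay between the 2 groups. TiNRDs just above the limit were close to the members, with early shares of 62.8% at 1000 kb (n = 16) and 61.4% at 1100 kb (n = 16). The lower early share was therefore not particular to domains under 1 Mb. The early share was lower in short than in long TiNRDs on 17 of 19 chromosomes, the exceptions being chromosomes 10 and 19. It ran from 41.2% on chromosome 14 to 87.5% on chromosome 19. Members were found on every autosome, from 8 on chromosomes 6, 11, 16 and 19 to 20 on chromosome 2.

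Counted by domain, 159 short TiNRDs were early over at least 50% of their length, or 63.6% (95% Wilson interval 57.5 to 69.3%). Among all 561 autosomal TiNRDs the share was 75.4%, and among those of 1 Mb or more it was 84.9% (80.5 to 88.4%). The count late over at least 50% was 85, or 34.0% (28.4 to 40.1%), against 23.4% of all autosomal TiNRDs. The long TiNRDs had 14.8% (11.3 to 19.2%), but the share was 37.5% both at 1000 kb (6 of 16) and at 1100 kb (6 of 16). The 7 members divided evenly between early and late are in both counts, which leaves 152 more than 50% early and 78 more than 50% late. In 13 members neither kind reached 50%. As many as 76 members lay wholly in early and 43 wholly in late RT domains.

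Timing differed between the shorter and the longer members. Of the 136 members of 300 to 500 kb, 51.5% were at least 50% early (43.1 to 59.7%), and of the 114 members of 600 to 900 kb, 78.1% (69.6 to 84.7%). At 300 kb the late share of length, 46.2%, exceeded the early share, 39.3%. At 600 kb the early share was 75.2%. The longer members were at 68.0%, 69.9% and 67.3% early for 700, 800 and 900 kb. Above the limit, TiNRDs of 1000 and 1100 kb were at 62.8% and 61.4%, so the early share did not keep rising with length. Sequence without an RT domain made up 14.5% of the length at 300 kb and 2.99% at 900 kb.

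**Figure D2:**
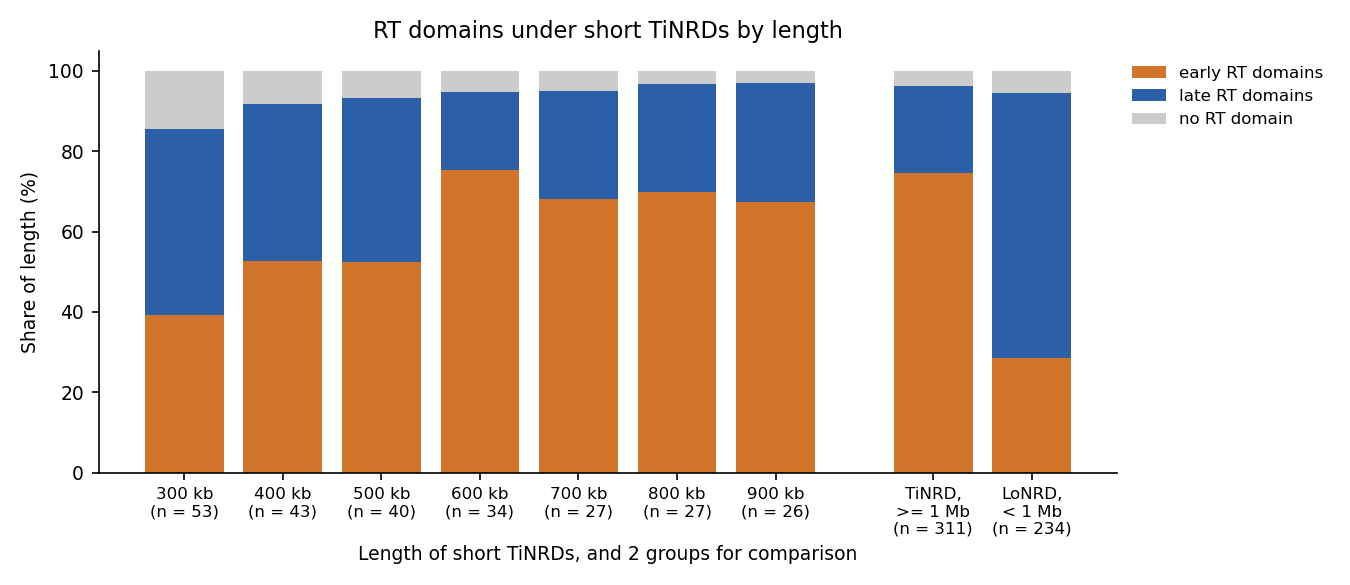
Share of length in percent (vertical axis) in early, late or no RT domain, for short TiNRDs of each length and, at the right, for TiNRDs of 1 Mb or more and LoNRDs under 1 Mb. The early share went from 39.3% at 300 kb to 75.2% at 600 kb, and was 74.6% in the long TiNRDs and 28.6% in the short LoNRDs.

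The score was also higher over early sequence. Members more than 50% early had a median NRI score of 0.29 (quartiles 0.18 and 0.43), and members more than 50% late had 0.19 (0.11 and 0.30). In the fifth of members with the lowest scores 39.9% of the length was early, and in the fifth with the highest scores 69.1%. Length differed along with score, with medians of 300 and 700 kb in these sets. Across the 250 domains the Spearman correlation of score with length was 0.53, and that of score with early share was 0.20. Domains of a chromosome share libraries and smoothing, so these are descriptions.

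The RT domain that shared most sequence with a member differed between classes. For the 152 members more than 50% early, it was a median of 800 kb long with a median RT value of 0.71 (log2). In 102 of them each domain covered at least 50% of the other, and in 93 of the 152 the RT domain was itself under 1 Mb. For 77 members more than 50% late with a late counterpart, the median length was 1550 kb and the median value −0.73, and only 13 had such mutual cover. Wholly inside this RT domain lay 76 of the 152 early members and 43 of the 77 late members.

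Distances between borders are given by class, although the classes were made from the same RT list. The 304 borders of members more than 50% early lay a median of 150 kb from the nearest border of an early RT domain, and 65.1% lay within 200 kb. For the 156 borders of late members the median was 650 kb and 17.3% lay within 200 kb, and a border inside a late RT domain is far from early ones in part by construction. To RT borders of either kind the medians were 150 and 300 kb. Over all 500 borders the median distance to early RT borders was 250 kb, equal to that of TiNRDs of 1 Mb or more.

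The timing of 500 kb on either side was read next. Late sequence on both sides with early sequence inside was found in 55 members, or 22.0%, against 40.2% of TiNRDs of 1 Mb or more. In 50 members, or 20.0%, both sides and the inside were late, against 10.6% of the long TiNRDs. In 26 members all were early. A further 56 were early inside with a single early side, and 24 were late inside with a single late side. These shares are of all domains. The inside and both sides could all be read as early or late in 213 members (85.2%) and in 94.5% of the long TiNRDs. The 55 early members between late sides carried 11.2 protein-coding genes per Mb and had a median score of 0.29, and the 50 members in late surroundings carried 7.35 per Mb and had a median of 0.16. Early members between late sides had a median length of 600 kb, and those in late surroundings 400 kb.

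The RT list gives each of the 19 autosomes an early domain from its first base, which includes the stretch of about 3 Mb before the first assembled base. Of these RT domains, 15 end by 3.2 Mb, with a median value of 0.28. On 7 autosomes the first NRD was a short TiNRD, and the left side of all 7 was read as early in this stretch. Without them 24 members were early throughout, and the count of early members between late sides stayed at 55.

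**Figure D3:**
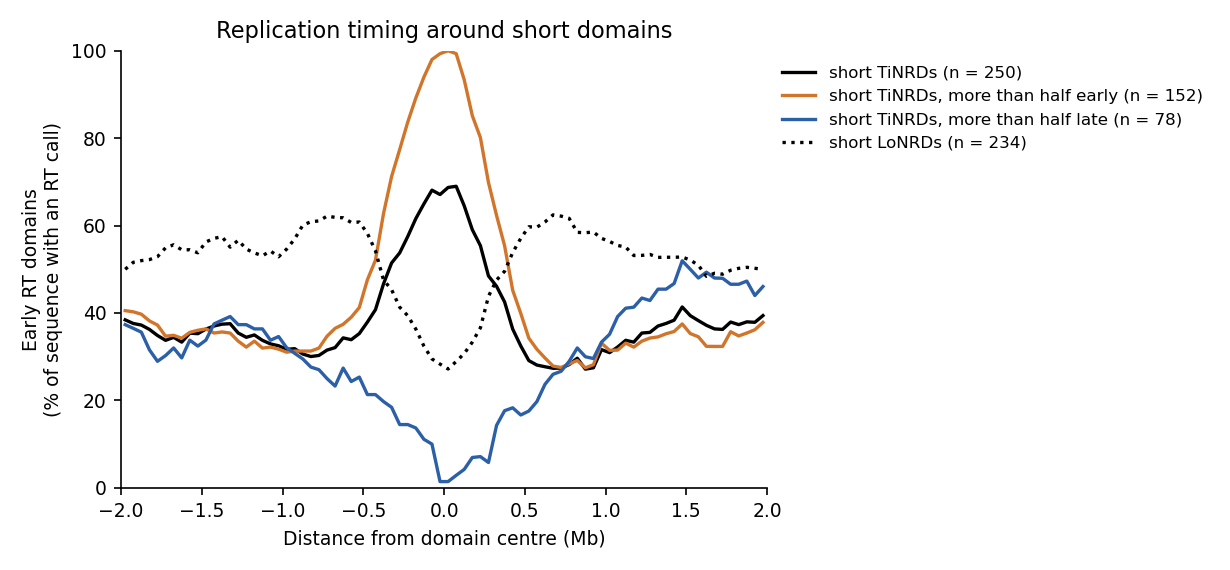
Share of sequence with an RT call that lay in early RT domains (percent, vertical axis) against distance from the domain centre (Mb, horizontal axis) for short TiNRDs, their early and late classes, and short LoNRDs. The early share of short TiNRDs fell from 67.9% in the central 50 kb on each side to 31.7% at 1 Mb, and that of short LoNRDs went from 27.7% to 55.2%, while the central values of the 2 classes follow from how they were chosen.

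A LoNRD touched both ends of 185 of the 250 short TiNRDs, or 74.0%, against 62.4% of TiNRDs of 1 Mb or more. A run of positive NRI can end only at negative or unlisted sequence, so loose neighbors follow in part from how NRDs are defined. For the members, allowing gaps of up to 200 kb added none. Neighboring LoNRDs were a median of 1200 kb long with a median score of −0.44, and 183 of 430 were themselves under 1 Mb. In 107 of the 185 the TiNRD was shorter than both neighbors, and in 9 it was longer than both. The score was nearer to 0 than in either neighbor in 109. In 65 members both neighbors were LoNRDs of 1 Mb or longer, and in these 70.2% of the length was early.

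Another TiNRD was the nearest NRD on at least 1 side of 55 members. These neighbors were always 100 or 200 kb away, on 28 and 33 sides, and were a median of 2300 kb long. No LoNRD was listed in these gaps. The remaining neighbor type was the chromosome end, for 9 members.

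Short TiNRDs held the starts of 1389 protein-coding genes, or 6.68% of the 20807 on the autosomes. This made 10.11 per Mb, against 13.4 in TiNRDs of 1 Mb or more and 7.45 in LoNRDs under 1 Mb. Just above the limit the density was no higher than in the members, at 8.94 per Mb for 1000 kb and 8.75 for 1100 kb (16 TiNRDs each). The median member had 4 (quartiles 2 and 7) and the richest had 32. Members more than 50% early held 11.3 per Mb and those more than 50% late 7.27. Of the 1389 genes, 1036 (74.6%) began in early and 276 (19.9%) in late RT domains. Over all autosomal genes the shares were close to these, at 75.6% and 21.2%. In TiNRDs of 1 Mb or more 89.9% of gene starts were early, and in short LoNRDs 40.6%.

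Base composition was intermediate as well. The median A/T content was 57.6% in short TiNRDs, 55.9% in long TiNRDs and 59.6% in short LoNRDs. CpG dinucleotides numbered 9.20, 10.5 and 6.84 per kb (medians). Early members had 57.4% A/T and 9.66 CpGs per kb, and late members 57.9% and 8.31. The quartiles of A/T content overlapped, at 56.7 to 57.9% and 57.4 to 58.4%. A/T content and score were related across members (Spearman −0.67, n = 250). MNase cuts A/T-rich DNA more readily, and its part in this relation was not tested.

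**Figure D4:**
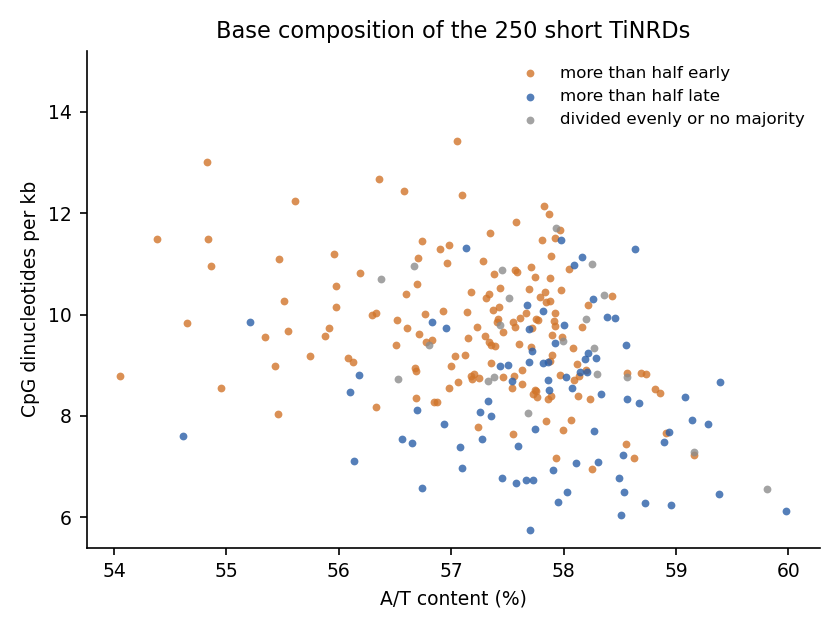
CpG dinucleotides per kb (vertical axis) against A/T content in percent (horizontal axis) for the 250 short TiNRDs, colored by RT class. The early and late classes overlapped widely in A/T content (medians 57.4% and 57.9%) and less in CpG density (medians 9.66 and 8.31 per kb).

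The 5 domains of highest score all held much repeated sequence. The measure used was the share of a domain's 50-base words that occur more than once in that domain, with a median of 1.23% over the members. The highest score, 1.24, belonged to chr14:3000001-3600000, which was wholly late, held 10 genes of the Gm3005 neighborhood and had 72.8% repeated words. Next came chr7:59300001-60000000 with a score of 1.00. This wholly late domain held no protein-coding gene start but 210 annotated snoRNA genes, 191 of them predicted. It overlapped Ube3a and Snrpn, of the imprinted region of Angelman and Prader-Willi syndromes, and had 53.1% repeated words. The third, chr5:14900001-15800000, scored 0.91, held Speer4 genes, which are expressed in spermatogenesis, was 72.2% late and only 56.1% assembled, and had 41.8% repeated words.

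The fourth, chr13:119500001-120400000, also scored 0.91 and was wholly early, with 80.7% of its length assembled. It held 18 genes, among them Hmgcs1 of the cholesterol pathway and Tcstv1 and Tcstv3 of the 2-cell-like state, and had 10.06% repeated words. The fifth, chr7:10800001-11700000, scored 0.87, was wholly late, carried the Zscan4 cluster and 45 pseudogenes, and had 51.0% repeated words. Zscan4 genes mark the transient 2-cell-like state of embryonic stem cells.

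In all, 15 members had over 10% repeated words, and 6 of these were among the 10 highest scores. They were 64.6% late, and 15 of the 234 short LoNRDs also passed this limit. Reads of low mapping quality had been removed by the authors, and the part of repeated sequence in these scores was not tested. Without the 15, early RT domains covered 63.9% of the length.

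The domains of lowest score were short and mostly late. The lowest, 0.01, belonged to chr13:18800001-19100000 with Amph, which encodes a synaptic protein of endocytosis. It was followed by chr19:60700001-61400000 at 0.02, a wholly early domain at the end of its chromosome with 11 genes including Eif3a, a translation initiation factor, and Prdx3, a mitochondrial peroxidase. Then came chr3:93000001-93300000 at 0.02, with Flg and Flg2 of the epidermal barrier. A score of 0.03 was found for chr12:15800001-16100000 with Trib2 and for chr16:6900001-7200000, which lay inside Rbfox1, a splicing regulator gene of 1526 kb. All but the chromosome 19 domain were wholly late and 300 kb long.

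The domain with the most genes, chr14:50600001-51400000, held 32 gene starts. It combined Apex1 and Parp2 of DNA repair with 9 Rnase genes and 7 olfactory receptor genes, was 81.2% early and scored 0.34. The domain chr7:12600001-13500000 held 29 and was 88.9% early with a score of 0.45. Its corepressor gene Trim28 lay between 2 groups of vomeronasal receptors, and the replicative ligase gene Lig1 lay beyond both groups. The type I interferon domain, chr4:88400001-88800000, held 25 gene starts, among them Ifnb1 and 7 Ifna genes. It was divided evenly between early and late and scored only 0.12.

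With 24 gene starts, chr2:84600001-85200000 was 91.7% early and scored 0.78. It carried Ssrp1, a subunit of the FACT histone chaperone, and Ctnnd1, whose promoter is shown above, and had 54.4% A/T. The last of the 5, chr7:105300001-105900000, held 23 gene starts including Ilk and Taf10 and was 58.3% early with a score of 0.48. It was tied with chr17:36600001-37200000 and is named by chromosome order.

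Of 90 members at least 90% early, 25 lay between late sides. Their highest RT value, 1.13, was found for chr8:74700001-75300000 (score 0.69), which held Hmox1 of heme breakdown and Mcm5, a subunit of the replicative helicase. LoNRDs of 1800 kb flanked it on both sides. The domain chr3:135200001-135800000 (RT value 1.09, score 0.32) held Nfkb1, Cenpe and Ube2d3. At chr9:7600001-8100000 (1.03, score 0.34), Yap1 of the Hippo pathway stood with the apoptosis inhibitors Birc2 and Birc3. The domain chr18:20500001-21400000 (1.02, score 0.27) held Dsg2, Dsg3 and Ttr. Itpr1, an intracellular calcium channel gene of 338 kb, lay in chr6:108100001-108900000 (0.86, score 0.55) between LoNRDs of 6700 and 3300 kb.

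Of 44 members at least 90% late, the lowest RT value, −0.98, was that of the secretoglobin cluster at chr7:33000001-33500000, with 8 Scgb genes, 59.4% A/T and 12.2% repeated words. The next, also at −0.98, lay inside Setbp1 at chr18:78800001-79100000 and held no gene start. The domain chr18:57800001-58200000 (−0.93) held the start of Slc12a2, a chloride cotransporter gene, and most of Fbn2. Fmn1 and Grem1, a BMP antagonist, lay in chr2:113300001-114000000 (−0.92). Of the 4 domains given here, the scores of the last 3 were between 0.07 and 0.12, below the member median of 0.24, and that of the secretoglobin domain was 0.39.

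Only 14 members held no protein-coding gene start, 11 of them more than 50% late and 9 of them 300 kb long. No TiNRD of 1 Mb or more lacked one, and 53 of the 234 short LoNRDs did. Of the 14, 6 overlapped no protein-coding gene body either. Of the others, 3 lay wholly inside a gene, namely Plcb4, Rbfox1 and Setbp1. The members also held 99 annotated miRNA genes and 306 annotated snoRNA genes, 210 of the latter in the single chromosome 7 domain named above. Of these 210, 191 were predicted genes.

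Gene clusters were counted as at least 4 protein-coding genes with a shared symbol stem in the same member. There were 27 clusters with 165 genes in 21 members, and 20 of the clusters were in members at least 50% early. These 20 include the Ifna cluster, whose domain was divided evenly. Of all members 63.6% were at least 50% early, and of all gene starts in members 74.6% were early. The largest were the 15 trace amine receptor genes at chr10:23600001-24300000 (score 0.15, wholly early) and 11 replication-dependent histone genes at chr13:21800001-22200000 (score 0.04, wholly early). The histone domain thus had a score near 0. Then followed 9 vomeronasal receptor genes and the 9 Rnase genes in the gene-rich domains above, with 9 Trim genes at chr7:104100001-104500000 (score 0.08, 87.5% early). After the 8 Zscan4 and 8 Scgb genes came 7 genes each of Ifna, of the vomeronasal receptors at chr7:22200001-22800000 (0.46, wholly late) and at chr17:20900001-21400000 (0.38, 80.0% late), and of the olfactory receptors with the Rnase genes.

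Of the 28 gene lists examined, the shares in short TiNRDs are read against the 6.68% of all genes. Trace amine and taste receptor genes had 20 of 53, in only 2 domains. Genes of the 2-cell-like state had 7 of 24, also in 2 domains, and cytokine and chemokine genes 22 of 102 in 6 domains, 10 of them type I interferon genes in a single domain. The 12 of 77 histone genes lay in 2 domains. In the lists just named the high shares thus came from few domains, and clustered genes are not independent.

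Cytosolic ribosomal protein genes had 9 of 78 in 9 domains. Of these genes 8 began in early sequence, beside 74.6% of all gene starts in members. Homeobox, Sox, Fox, T-box and Gata family genes had 18 of 203 in 12 domains. Zinc finger genes had 35 of 417, solute carrier genes 24 of 343, mitochondrial ribosome and respiratory chain genes 11 of 178, and proteasome, RNA polymerase and spliceosome genes 7 of 111. Serpin genes had 4 of 60 and defensin genes 4 of 64. Vomeronasal receptor genes had 34 of 329 in 9 domains. Of these lists the defensin, vomeronasal receptor and zinc finger genes also held clusters.

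Other lists had lower shares. Olfactory receptor genes had 37 of 1128, lectin-like receptor, Ly6 and MHC genes 5 of 107, kallikrein and protease inhibitor genes 4 of 93, voltage-gated ion channel genes 3 of 118, and keratin and epidermal barrier genes 3 of 148. Neurotransmitter receptor genes had 2 of 89, cytochrome P450, Ugt and Sult genes 2 of 142, neuronal adhesion and synapse organizer genes 1 of 46, and Wnt, Fgf, Bmp and Gdf ligand genes 1 of 59. None of the 90 cadherin and protocadherin genes or of the 54 prolactin, Psg and Ceacam genes began in a short TiNRD.

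**Figure D5:**
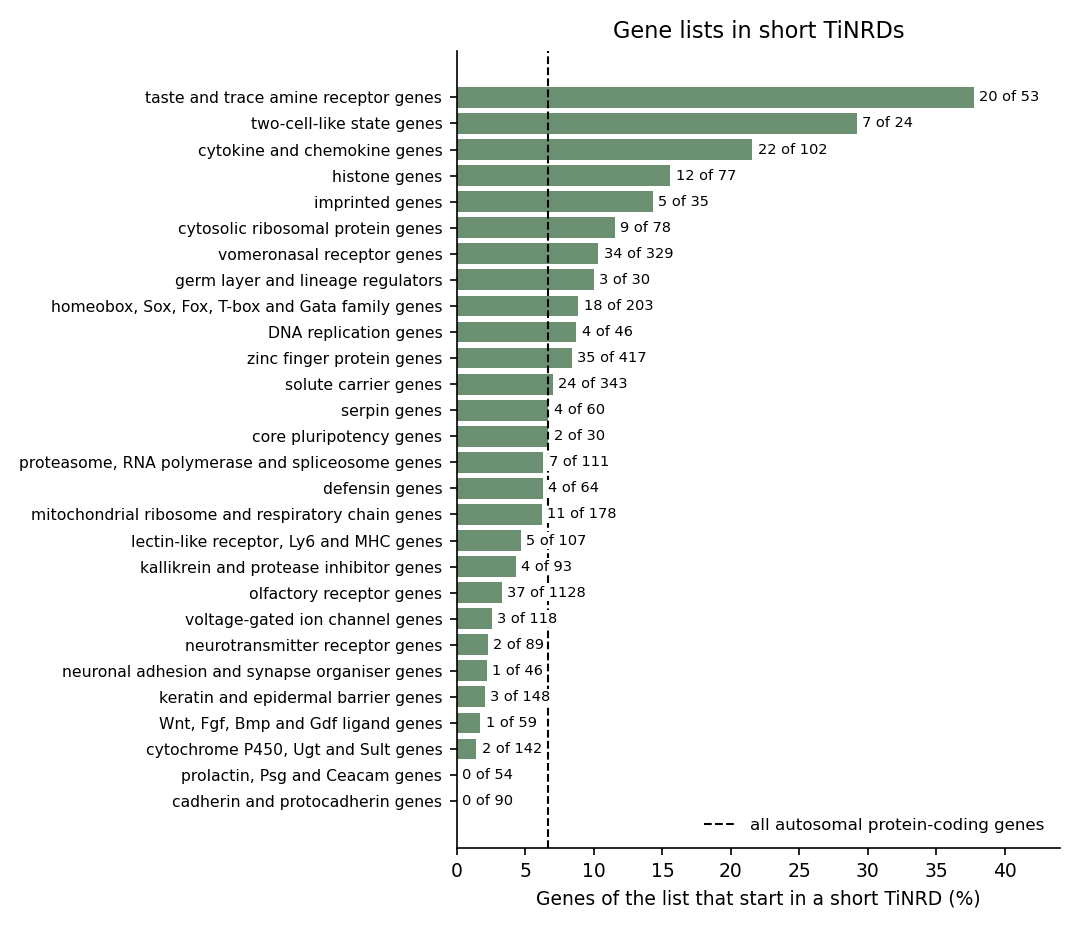
Percentage of the autosomal genes of each list that start in a short TiNRD (horizontal axis), with the number of genes beside each bar, and the share of all protein-coding genes, 6.68%, as a dashed line. The longest bars were those of the taste and trace amine receptor, 2-cell-like, cytokine and histone lists, and 2 lists had no gene in these domains.

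Among the 30 core pluripotency genes, Tet2 and Klf5 began in short TiNRDs and 25 in TiNRDs of 1 Mb or more. Tet2, which oxidizes 5-methylcytosine, lay in chr3:133200001-133600000 (score 0.13, 87.5% early), and Klf5, a factor of self-renewal, in chr14:99100001-99500000 (0.18, wholly early). Of 30 germ layer and lineage regulators, 3 began in members. Pax6, needed for eye and neural development, lay in chr2:105000001-105700000 (0.51, 85.7% early), and the neurogenic factor Neurog2 in chr3:127300001-128100000 (0.29, 68.8% early). Gata6, a regulator of primitive endoderm, began in late sequence of chr18:10600001-11400000 (0.33, 56.2% late).

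Several family members of these regulators shared a domain. Nkx2-4, Nkx2-2 and Pax1 lay in chr2:147000001-147500000 (score 0.15, 80.0% early), and Nkx2-1, Nkx2-9 and Pax9 in chr12:56400001-56800000 (0.22, 75% early). Tbx2 and Tbx4 lay in the wholly early chr11:85300001-86100000 (0.55).

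Of 46 DNA replication genes, 4 began in short TiNRDs, all in early sequence. Besides Mcm5 and Lig1 these were the helicase subunit genes Mcm3, in chr1:20600001-21400000 (score 0.38, 93.8% early), and Mcm6, in chr1:128300001-129000000 (0.47, 42.9% early). There were 5 of 35 imprinted genes in members, again all in early sequence. Of all gene starts in members, 74.6% were early. Ube3a and Snrpn overlapped the wholly late chromosome 7 domain but did not begin in it, so they are not counted. Ddc and Grb10, an adaptor that restrains growth, shared chr11:11500001-12200000 (0.34, 92.9% early). Rasgrf1 lay in chr9:89600001-90400000 (0.72, 68.8% early), Zrsr1 in chr11:22500001-23200000 (0.41, wholly early) and Asb4 in chr6:5000001-5400000 (0.09, wholly early).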

How the data were processed

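Wrapping-seq of histone H3 (4 libraries) and RT of S-phase fractions (8 libraries) were available as 2 domain lists on mm10. The authors trimmed reads with cutadapt 4.3, aligned them with Bowtie2 2.5.1, and removed duplicates and poorly mapped reads. NRDs were deposited with a score per domain, made from the smoothed H3 NRI of 100 kb bins. The deposited list holds fewer NRDs than the authors report in their paper. RT domains were deposited with a log2 value, the ratio of early to late fractions in 50 kb windows after quantile normalization. How replicates were combined, and how bin values became domain values, is not given in the sources used here.

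Members, gene lists and named domains were chosen with earlier results of these data known. Overlaps, GENCODE M21 genes (autosomal protein-coding, placed by their start), GRCm38.p6 base composition and repeated 50-mers were computed in Python 3.11.15 (numpy 2.4.6, scipy 1.17.1, matplotlib 3.10.9). Overlaps were checked with bedtools 2.31.1 and on simulated intervals. Promoters were matched by symbol for 1012 of 1389 genes, and the promoter set covered 18 of the 19 autosomes. Named domains were the 5 with the highest score, the lowest score, the most genes, the highest RT value among those at least 90% early between late sides, and the lowest RT value among those at least 90% late. Wilson intervals (95%) are given, and no test was made. The other samples of the series were not analysed here. Results on some named genes, and 1 of the 5 late domains of the naming rule, are not reported here.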

Additional observations from a re-analysis of the deposited data

How the results depend on the processing

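Of 70 values computed for 10 results under other settings, 56 stayed within 1.5 times the reported count or within the 95% interval of the reported value. With scores of at least 0.2, 148 short TiNRDs were left, of which 40 were at least 50% late, 103 had a LoNRD on both sides and 6 had no protein-coding gene start, and the median A/T content was 57.2%. Below 800 kb the early members between late sides numbered 35 and the median A/T content was 57.7%. The members with late sequence numbered 54 at a limit of 80% of the length and 161 with any overlap. Protein-coding genes numbered 11.0 per Mb when any overlap counted, which left 6 members without a gene, and 9.48 per Mb when only genes wholly inside counted. Outside repeats masked in the reference the median A/T content was 56.8%. To RT borders of either kind the median distance was 150 kb. The lengths, scores and gene overlaps in these settings differ by their own construction. Domains with over 10% repeated 50-mers, and those at the start of assembled sequence, were left out in settings chosen after seeing the data, and the counts and shares recomputed stayed within the same limits. No replicate could be left out, and no paired analysis was possible because each list holds a single value per domain and the result comes from no test.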
